A study of Mus musculus with 4 samples.

Results

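The loss of Smad3 was examined in heart endothelium that had received no doxorubicin (Dox), by comparing the Smad3-knockout (KO) saline library with the wild-type (WT) saline library. These are 2 of the 4 libraries of the study, with 1 library per group, and 12325 of 45882 listed genes entered the comparison because their mean over the 4 libraries was at least 1 FPKM. FPKM is a level of fragments corrected for the length of the transcript and for the size of the library. The KO animals were male mice of the 129-Smad3tm1Par/J line, a global deletion, and the WT animals were male mice whose strain the labels do not give. Both groups had received 4 weekly tail vein injections of saline from 7 wk of age, and their cardiac cells were collected 9 wk after the last injection, at 20 wk of age. The remaining libraries, KO Dox and WT Dox, came from mice given doxorubicin at 5 mg/kg on the same schedule. The cells of all 4 groups were freed from perfused hearts with collagenase and selected on beads against CD31 (Pecam1), so they were exposed to digestion before RNA was taken. The number of hearts per library is not stated. The deletion was present in every cell of the KO mice, and a difference in the selected cells need not have arisen in them.

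Smad3 is a transcription factor that the type I TGF-β receptor phosphorylates, after which it binds Smad4, enters the nucleus and acts on genes of matrix, growth arrest and inflammation. Smad2 carries the same receptor's signal, Smad1, Smad5 and Smad9 carry BMP signals, and Smad6 and Smad7 are the inhibitory members of the family. In endothelium TGF-β is known for its part in vessel maturation, in the expression of leukocyte adhesion molecules and in the transition of endothelial cells to a mesenchymal state.

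Smad3 itself was at 1.02 FPKM in KO saline and 0.848 FPKM in KO Dox, against 2.95 FPKM in WT saline and 2.09 in WT Dox. Both KO libraries were thus below both WT libraries, as their titles have it, but transcript remained in both. The log2 difference, taken throughout between values of log2(FPKM + 0.5), was -1.19 in the saline pair and -0.94 in the Dox pair. The gene lies on the minus strand of chromosome 9 (63646767 to 63757994, GRCm38), no other annotated gene overlaps it, and the table does not show which exons gave the remaining fragments. The genotype tag in the sample labels names the other genotype for 2 of the 4 samples, the ones titled KO saline and WT Dox. The groups used here are those of the titles, which the column names repeat. By the tag, both Dox libraries would be KO and both saline libraries WT, so genotype and treatment could not be told apart. In that grouping, which sets Dox against saline, the mean Smad3 log2 values would differ by -0.29.

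Both saline libraries carried the transcripts of vascular endothelium at similar levels. Pecam1, the protein used for selection, was at 511 FPKM in KO saline and 499 FPKM in WT saline. The VEGF receptor Kdr was at 282 FPKM in KO saline and 253 FPKM in WT saline. None of 17 pan-endothelial markers passed a log2 difference of 1, and their median was -0.06. The summed FPKM of the whole table was 666863 in KO saline and 509818 in WT saline, mitochondrially encoded genes took 20.1% and 10.5% of it, and Actb took 2.06% and 0.62%. The number of reads is unknown. Among 90 genes at their lowest steps, the commonest ratio, seen in 18, made 1 fragment worth 1.12 times as many FPKM in KO saline as in WT saline. With 1 library on each side no difference has a replicate check, and no SD, test or p is given. The words rose and fell are used of KO saline for differences of at least 1 on the log2 scale, which understates the change of low genes.

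By that rule 582 of 12325 genes differed between KO saline and WT saline (4.72%). Of these, 209 rose (1.70%) and 373 fell (3.03%), and the median over all genes was -0.01. The counts of the gene lists below are to be read beside these shares. The middle 95% of all differences ran from -1.07 to 0.85. Of 1049 genes that do not code for protein 20.9% passed, and of 11276 protein-coding genes 3.22%. In 35 of the risen genes WT saline was listed at 0.05 FPKM, the floor of the table, and in 41 of the fallen genes KO saline was. Of all these genes at the floor, 9 code for protein. Among protein-coding genes alone, 105 rose and 258 fell.

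**Figure D1:**
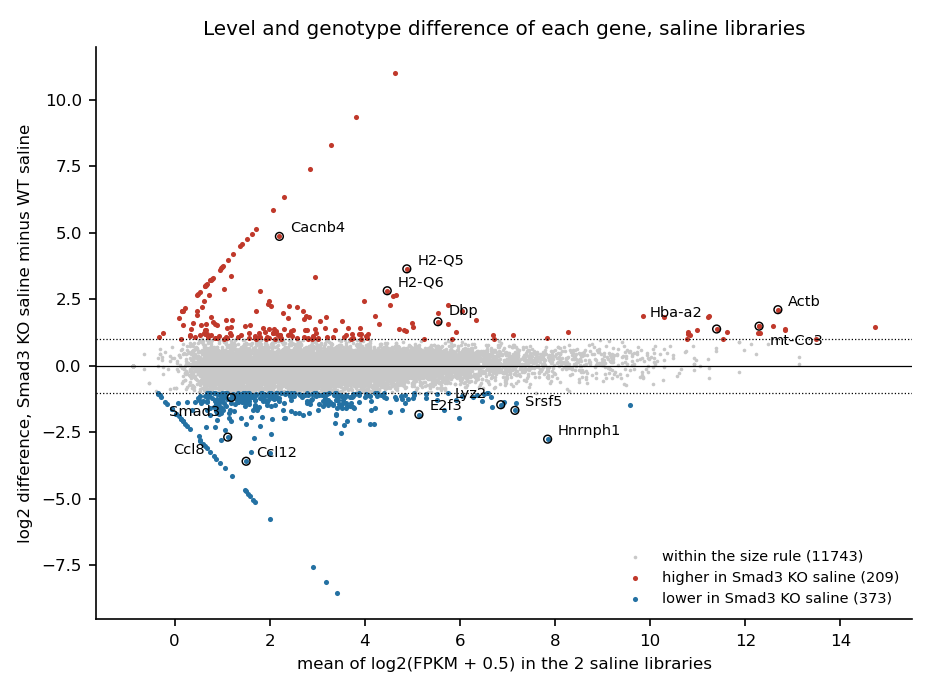
Each point is a gene, with its mean log2(FPKM + 0.5) over the KO saline and WT saline libraries on the horizontal axis and the log2 difference, KO saline minus WT saline, on the vertical axis, and dotted lines mark differences of 1. The 209 risen genes are red and the 373 fallen genes blue; the straight rows of points at low level are genes listed at the floor of 0.05 FPKM in one of the libraries.

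The genotype contrast was present once more in the Dox libraries, which share no library with the saline pair. Over all genes tested, 6.17% were higher and 3.75% were lower by the same rule in KO Dox than in WT Dox. Of the 209 genes that rose in KO saline, 64 also rose in KO Dox (30.6%) and 20 fell there (9.57%). Of the 373 that fell in KO saline, 75 also fell in KO Dox (20.1%) and 19 rose (5.09%). A total of 139 genes therefore passed in the same direction in both pairs and 39 in opposite directions. The shares in the same direction exceeded those of all genes, as did the share of risen genes that fell in KO Dox. Most genes past the rule between the saline libraries did not pass between the Dox libraries, where the median difference of the risen genes was 0.46 and that of the fallen genes -0.23.

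The order of the 4 levels was compared between the called genes and all genes. Both KO libraries stood above both WT libraries for 114 of the 209 risen genes, against 28.0% of all genes tested. Both stood below for 212 of the 373 fallen genes, against 20.7% of all genes. The calls themselves fix the order of the saline libraries, so these shares are bound to exceed those of all genes. WT saline was the highest of the 4 libraries for 315 of the 373 fallen genes (84.5%), and it was the highest for 32.7% of all genes. KO saline was the lowest library for 201 of the fallen genes (53.9%), against 16.5% of all genes. The calls raise both of these shares as well. For the 161 fallen genes outside the 212, at least 1 KO library stood at or above a WT library. The fallen genes thus include a group that was low in both KO libraries and a group in which KO and WT levels overlapped. How alike the libraries were in the latter group was not measured.

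**Figure D2:**
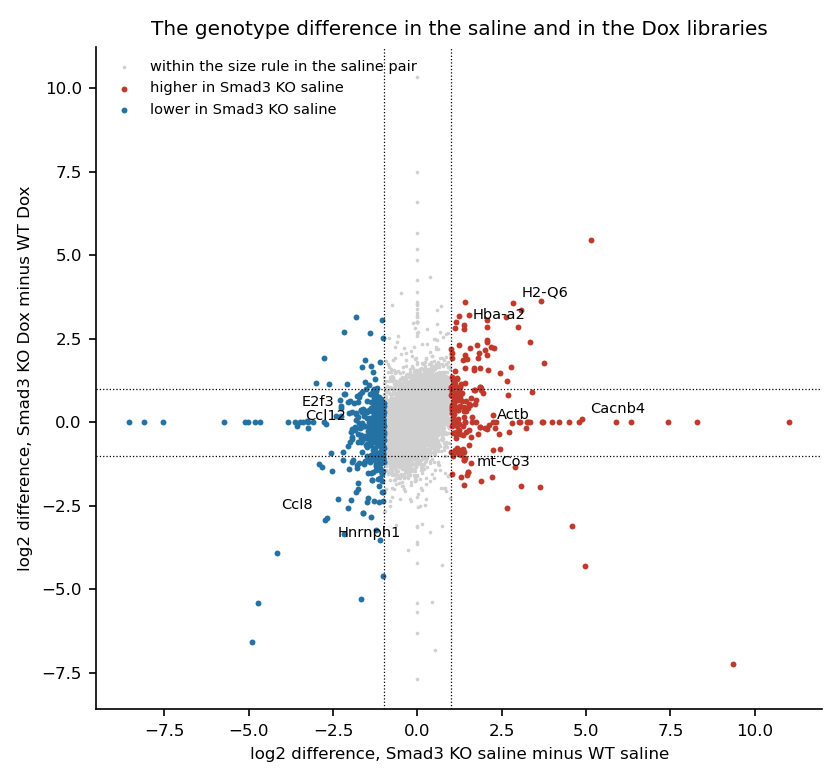
Each point is 1 of the 12325 genes, with the log2 difference KO saline minus WT saline on the horizontal axis and KO Dox minus WT Dox on the vertical axis, and dotted lines mark differences of 1. Red points rose and blue points fell in KO saline; Hnrnph1, Ccl8 and H2-Q6 lie far along the diagonal, Actb, Cacnb4, Ccl12 and E2f3 lie near 0 on the vertical axis, and mt-Co3 has the opposite sign.

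Smad3 was the only member of its family past the rule in the saline pair, among the 7 that entered the comparison. Smad1 was at 12.9 FPKM in KO saline and 23.5 FPKM in WT saline (log2 difference -0.85). The inhibitor Smad7 was at 21.2 FPKM in KO saline and 37.96 FPKM in WT saline (-0.83), and it stood at 9.63 FPKM in KO Dox against 25.9 FPKM in WT Dox (-1.38). The inhibitor Smad6 was at 21.6 FPKM in KO saline and 37.8 FPKM in WT saline (-0.80), but in the Dox pair its difference was -0.07. Smad5 (-0.23), Smad2 (-0.14) and the common partner Smad4 (0.06) differed little between the saline libraries. The family median was -0.80. When the libraries were scaled to a common sum, a step that shifted the median of all genes to -0.38, Smad1, Smad6 and Smad7 also passed, at -1.24, -1.18 and -1.22. No neighbour of Smad3 passed: the differences of 34 genes within 2 Mb ran from -0.80 (Smad6) to 0.71 (Rbpms2) around a median of 0.10.

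Few TGF-β genes passed the rule, beside 4.72% of all genes tested and 3.22% of protein-coding ones. Lists of this size would hold few calls at those shares, and how many passed depended on the scaling of the libraries. Of 34 ligands, latency proteins, receptors and modulators 1 fell and none rose, with a median of -0.27. It was Itgav, the αv integrin chain that releases latent TGF-β, at 2.98 FPKM in KO saline and 6.79 FPKM in WT saline (-1.07), and it no longer passed with a pseudocount of 1 (-0.97). With a common sum 6 of the 34 passed and the list median was -0.66, beside -0.38 for all genes. The ligand Tgfb1 was at 117 FPKM in KO saline and 98.4 FPKM in WT saline (0.25). The type II receptor Tgfbr2 was at 36.7 FPKM in KO saline and 45.2 FPKM in WT saline (-0.30). The endothelial co-receptor Eng was at 672 FPKM in KO saline and 474 FPKM in WT saline (0.50).

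None of 37 TGF-β target genes passed in either direction, beside 4.72% of all genes. Their median was -0.26, beside -0.01 for all genes. With a common sum 7 passed and the median was -0.65, without Actb and mitochondrial genes in that sum 4 passed, with a pseudocount of 0.1 there were 2, and with the length trend removed 1 did. Ctgf, a matricellular growth factor, was at 52.1 FPKM in KO saline and 52.4 FPKM in WT saline. It was level between the genotypes, while other targets leaned lower without passing. The transcription factor Snai2 was at 1.31 FPKM in KO saline and 2.77 FPKM in WT saline (-0.86), the matrix protein Thbs1 at 18.4 and 33.5 FPKM (-0.85) and the basement membrane collagen Col4a1 at 425 and 626 FPKM (-0.56). Smooth muscle actin Acta2 leaned the other way, at 228 FPKM in KO saline and 161 FPKM in WT saline (0.50). Of 16 genes of BMP signalling none passed, or 1 with a common sum, and the BMP target Id1 was at 396 FPKM in KO saline and 548 FPKM in WT saline (-0.47).

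**Figure D3:**
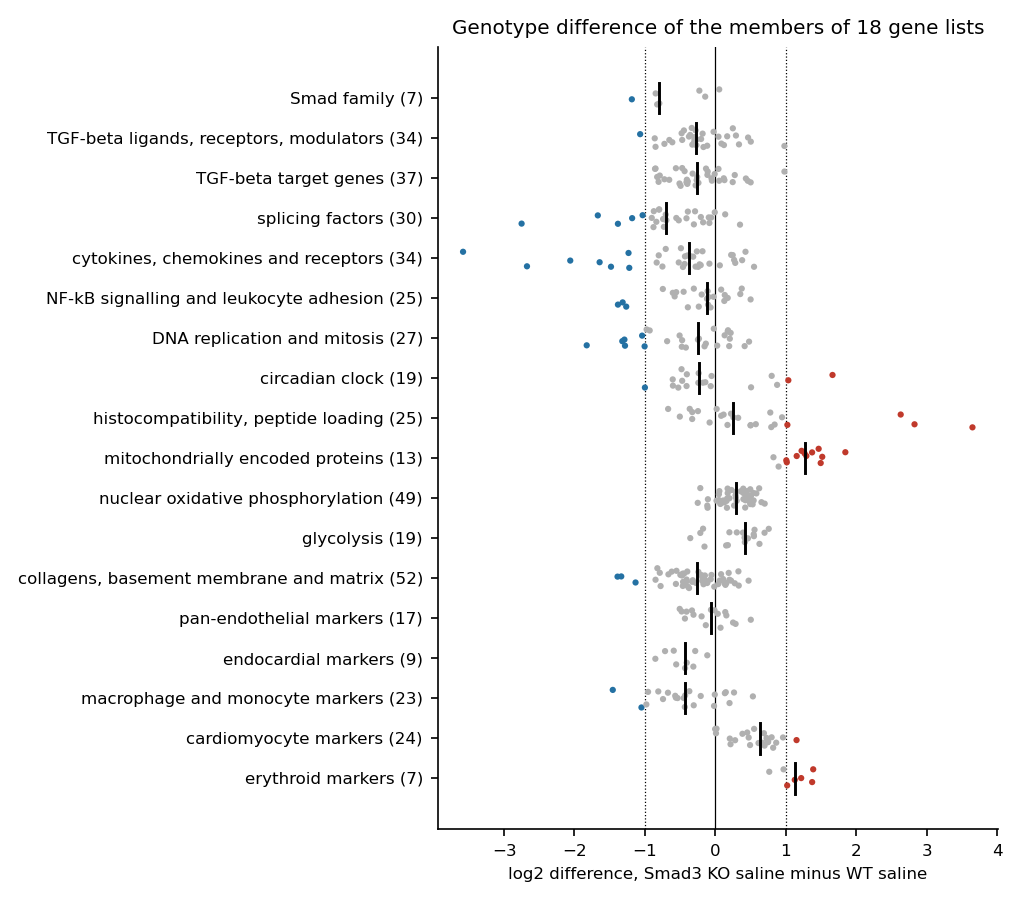
Each point is a gene of the named list, with its log2 difference KO saline minus WT saline on the horizontal axis, the number of members tested in parentheses and a black bar at the list median; red points rose, blue points fell and grey points did not reach a difference of 1. The TGF-β lists lie mostly within 1 of 0, chemokines and splicing factors reach to the left, and histocompatibility, mitochondrially encoded and erythroid genes reach to the right.

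The largest fall shared by both genotype pairs at a high level was that of Hnrnph1, an RNA-binding protein that takes part in the choice of splice sites. It was at 88.0 FPKM in KO saline and 81.5 FPKM in KO Dox, against 596 FPKM in WT saline and 620 in WT Dox. The KO libraries lay close together and far below the WT libraries, and the log2 differences were -2.75 and -2.92. The gene lies on chromosome 11 (50376990 to 50386528, GRCm38) and no annotated gene overlaps it. Its close homologue Hnrnph2 was at 28.0 FPKM in KO saline and 28.2 FPKM in WT saline.

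The other genes among the 10 strongest falls of both pairs were mostly low or moderate in level. Ccl8, a chemokine that attracts monocytes, was at 0.359 FPKM in KO saline and 0.187 FPKM in KO Dox, against 4.99 FPKM in WT saline and 4.46 in WT Dox. Lyz2, the lysozyme of macrophages and neutrophils, was at 69.6 FPKM in KO saline and 34.4 FPKM in KO Dox, against 192 FPKM in WT saline and 167 in WT Dox. Mcpt4, a mast cell protease, was at 0.609 FPKM in KO saline and listed at the floor in KO Dox, against 4.15 FPKM in WT saline and 2.77 in WT Dox. All of these encode products known from blood-derived cells, and the KO libraries lay below the WT libraries in each. Mmp9, a gelatinase that neutrophils store, was at 1.08 FPKM in KO saline and 0.431 FPKM in KO Dox, against 3.49 FPKM in WT saline and 2.55 in WT Dox. Of the 3 neutrophil markers tested, the others, S100a9 and Retnlg, were higher in both KO libraries than in both WT libraries. Neither of them passed in the saline pair. Retnlg was at 1.24 FPKM in KO saline and 0.853 FPKM in WT saline. In the Dox pair it was at 6.87 FPKM in KO and 1.21 FPKM in WT. The chromatin remodeller Chd2 was at 5.17 FPKM in KO saline and 14.1 FPKM in WT saline (-1.37, and -1.52 in the Dox pair). Ptprv, a phosphatase-like gene under p53, was at 0.502 FPKM in KO saline and 2.04 FPKM in WT saline (-1.34, and -1.73 in the Dox pair). Efcab7, whose protein belongs to a complex of the primary cilium, was at 4.25 FPKM in KO saline and 26.8 FPKM in WT saline (-2.52, and -1.46 in the Dox pair). Efcab7 overlaps Itgb3bp, and Chd2, Ptprv and Pcnxl3 also overlap other annotated genes. Reads of overlapping genes may not have been told apart. The remaining ones were the kallikrein Klk1b22, one of a family of near-identical genes (-1.75, and -1.99 in the Dox pair), and Pcnxl3, a membrane protein (-1.48, and -1.50 in the Dox pair).

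**Figure D4:**
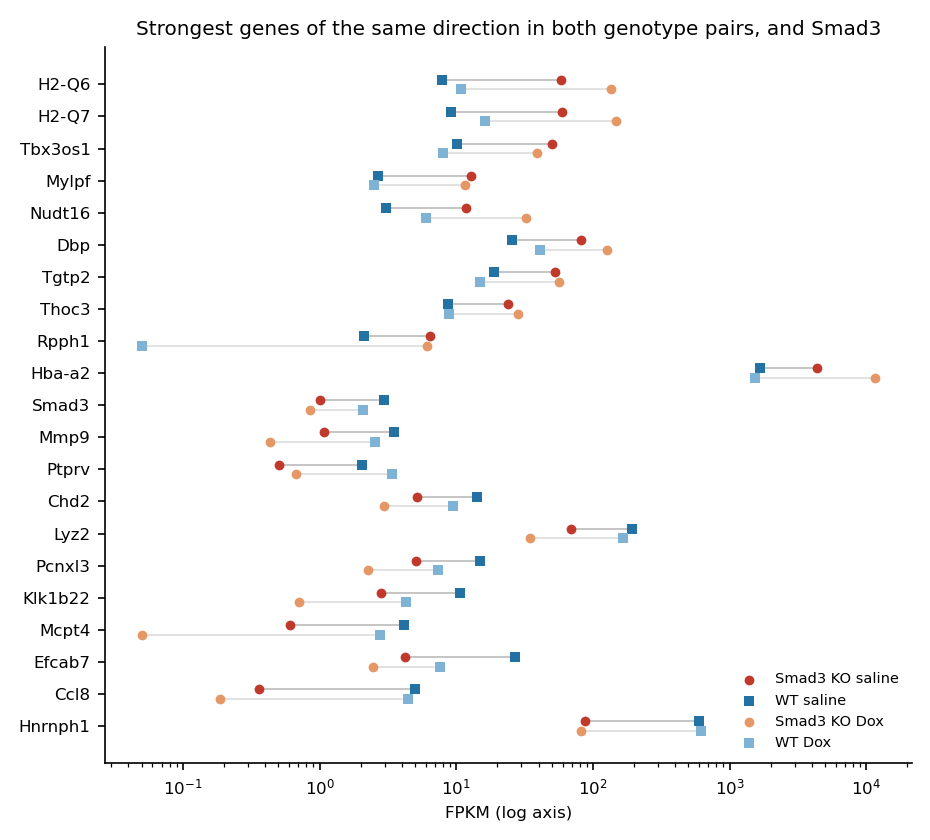
FPKM on a log axis of Smad3 and of the 20 strongest genes past the rule in the same direction in both genotype pairs, with circles for the KO libraries, squares for the WT libraries, dark colours and the upper line of each gene for the saline pair, and light colours and the lower line for the Dox pair. In every gene shown both circles lie on the same side of both squares; the points at 0.05 FPKM are values at the floor of the table.

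In the other direction, the strongest shared genes were nonclassical class I histocompatibility genes, which encode molecules related to those that present peptides to T cells. H2-Q6 was at 58.7 FPKM in KO saline and 135 FPKM in KO Dox, against 7.83 FPKM in WT saline and 10.8 in WT Dox. H2-Q7 was at 59.2 FPKM in KO saline and 148 FPKM in KO Dox, against 9.12 FPKM in WT saline and 16.3 in WT Dox. H2-Q5, annotated as a polymorphic pseudogene, was at 104 FPKM in KO saline and 77.5 FPKM in KO Dox, against 7.83 FPKM in WT saline and 5.76 in WT Dox. All of them were higher in both KO libraries than in both WT libraries, by 2.63 to 3.65 on the log2 scale in the saline pair. They lie beside each other on chromosome 17 and are copies of one another, so the split of fragments among them is uncertain. To show how alike they are, the 250 bases before the RefSeq start (GRCm38.p6) of H2-Q6 (chr17:35424600-35424849, plus strand) and H2-Q7 (chr17:35438905-35439154, plus strand) follow, 5′ to 3′, with capitals for stretches of at least 20 bases that both windows hold.
H2-Q6: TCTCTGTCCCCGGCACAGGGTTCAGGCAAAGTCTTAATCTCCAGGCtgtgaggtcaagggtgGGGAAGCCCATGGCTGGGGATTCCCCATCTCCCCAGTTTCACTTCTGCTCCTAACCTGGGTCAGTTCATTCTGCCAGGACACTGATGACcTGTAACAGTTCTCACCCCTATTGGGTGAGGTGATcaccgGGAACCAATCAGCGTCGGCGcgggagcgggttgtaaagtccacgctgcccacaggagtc
H2-Q7: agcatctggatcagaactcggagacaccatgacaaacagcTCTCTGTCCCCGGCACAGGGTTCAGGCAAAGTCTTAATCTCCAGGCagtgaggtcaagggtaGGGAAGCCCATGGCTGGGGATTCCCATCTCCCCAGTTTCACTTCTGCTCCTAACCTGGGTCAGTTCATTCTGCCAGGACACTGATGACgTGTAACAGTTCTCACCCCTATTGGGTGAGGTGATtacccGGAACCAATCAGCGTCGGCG
The shared stretches cover 189 bases of the H2-Q6 window and 188 bases of the H2-Q7 window, and the longest is 66 bases.

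The rest of antigen presentation was mixed. Of 25 genes of class I, class II and peptide loading 4 rose and none fell in KO saline, with a median of 0.26. Besides the H2-Q genes this was H2-T22, at 53.7 FPKM in KO saline and 26.2 FPKM in WT saline (1.02), which no longer passed when libraries were scaled to a common sum (0.64). The classical class I gene H2-K1 was at 549 FPKM in KO saline and 319.7 FPKM in WT saline (0.78), and H2-D1 was at 500.2 and 418 FPKM (0.26). The immunoproteasome subunit Psmb9 was at 21.9 FPKM in KO saline and 11.98 FPKM in WT saline (0.84). Class II genes leaned the other way, and H2-Eb1 was at 50.4 FPKM in KO saline and 80.6 FPKM in WT saline (-0.67).

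Further genes that rose in both pairs had varied roles. Tbx3os1, a noncoding transcript antisense to Tbx3, was at 50.6 FPKM in KO saline and 38.9 FPKM in KO Dox, against 10.1 FPKM in WT saline and 7.96 in WT Dox. Because its locus overlaps Tbx3 and the use of strand is unknown, these fragments cannot be assigned with certainty. Mylpf, a myosin light chain of fast skeletal muscle, was at 12.7 FPKM in KO saline and 11.6 FPKM in KO Dox, against 2.68 FPKM in WT saline and 2.49 in WT Dox. Nudt16, an enzyme that hydrolyses inosine nucleotides and RNA caps, was at 11.7 FPKM in KO saline and 3.07 FPKM in WT saline (1.78, and 2.33 in the Dox pair). Tgtp2, an interferon-inducible GTPase, was at 53.01 FPKM in KO saline and 18.9 FPKM in WT saline (1.47, and 1.88 in the Dox pair). Thoc3, part of a complex that exports messenger RNA, was at 24.01 FPKM in KO saline and 8.71 FPKM in WT saline (1.41, and 1.64 in the Dox pair). Capzb, a protein that caps actin filaments, was at 479.6 FPKM in KO saline and 197.9 FPKM in WT saline (1.27, and 1.06 in the Dox pair). Rpph1, the RNA of ribonuclease P, was at 6.46 FPKM in KO saline and 2.13 FPKM in WT saline, and it was listed at the floor in WT Dox. Tgtp2 and Rpph1 overlap other annotated genes as well.

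Of all lists examined, that of chemokines and cytokines held the largest number of falls in KO saline, though not the largest share of its members. Of 34 cytokines, chemokines and receptors 7 fell and none rose, beside 3.03% that fell among all genes, and the median was -0.38. In 17 of the 34 both KO libraries were below both WT libraries, beside 20.7% of all genes. The number past the rule was 11 with a common sum. Ccl12, a mouse chemokine that binds the receptor Ccr2, was at 0.320 FPKM in KO saline and 9.33 FPKM in WT saline (-3.58). It was at 5.09 FPKM in KO Dox and 5.56 FPKM in WT Dox, so KO saline alone was low. Ccl2, the main ligand of Ccr2, was at 20.7 FPKM in KO saline and 15.2 FPKM in KO Dox, against 48.9 FPKM in WT saline and 38.4 in WT Dox. Its difference was -1.22 in the saline pair and -1.31 in the Dox pair. Ccl3 and Ccl4, neighbouring genes for macrophage chemokines, fell together: Ccl3 was at 5.57 FPKM in KO saline and 24.8 FPKM in WT saline (-2.06), and Ccl4 was at 6.24 FPKM in KO saline and 18.3 FPKM in WT saline (-1.48). In the Dox pair their differences were -0.71 and -0.65. Cxcl10, an interferon-induced chemokine for T cells, was at 6.48 FPKM in KO saline and 15.9 FPKM in WT saline (-1.23), and in the Dox pair its difference was 0.72. Il6 was at 27.8 FPKM in KO saline and 34.7 FPKM in WT saline (-0.31), and Il1b at 21.4 and 16.3 FPKM (0.38), so the falls did not extend to these cytokines.

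Cxcl2, a neutrophil chemokine, was at 28.1 FPKM in KO saline and 27.0 FPKM in KO Dox, against 88.8 FPKM in WT saline and 50.6 in WT Dox. The log2 differences were -1.64 and -0.89. SMAD proteins are known to bind the letters CAGACA, with TGTCTG on the other strand, and the palindrome GTCTAGAC. In the 250 bases before each start, 17.1% of 32851 RefSeq windows hold CAGACA on either strand and 0.167% hold GTCTAGAC. CAGACA was found for 2 of the 30 fallen named genes with a window, Cxcl2 and Hnrnph1, and for 1 of the 20 risen ones, Ciart, and GTCTAGAC for none. The window of Cxcl2 (chr5:90903649-90903898, plus strand, RefSeq, GRCm38.p6) is shown 5′ to 3′ because it is the fallen gene with a single start whose window holds the element, in capitals.
Cxcl2: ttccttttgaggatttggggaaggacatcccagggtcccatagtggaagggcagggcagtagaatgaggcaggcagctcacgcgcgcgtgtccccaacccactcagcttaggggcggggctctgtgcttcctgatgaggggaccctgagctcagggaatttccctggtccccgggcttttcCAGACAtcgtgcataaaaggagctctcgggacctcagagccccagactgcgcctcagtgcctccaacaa
The match is a description of the letters and does not show that Smad3 binds there.

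Of 25 genes of NF-κB signalling and leukocyte adhesion 3 fell and none rose, and their median was -0.12. The endothelial selectins, which slow leukocytes on the vessel wall, were among them. Sele was at 3.76 FPKM in KO saline and 10.6 FPKM in WT saline (-1.38), and Selp was at 5.02 FPKM in KO saline and 13.3 FPKM in WT saline (-1.32). In the Dox pair Sele differed by -0.42 and Selp by 0.95. Nfkbiz, an inducible regulator of NF-κB, was at 38.5 FPKM in KO saline, 40.7 FPKM in KO Dox and 40.5 in WT Dox, against 93.3 FPKM in WT saline. The adhesion molecules Vcam1 and Icam1 did not pass: Vcam1 was at 30.4 FPKM in KO saline and 26.8 FPKM in WT saline, and Icam1 was at 99.5 FPKM in KO saline and 106 FPKM in WT saline.

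Nfkbiz thus stood out in WT saline alone. Splicing factors often shared this order of levels, and WT saline was the highest for 24 of 30, beside 32.7% of all genes. Of the 30, 5 fell and none rose in KO saline, and the median was -0.70. Srsf5, a serine- and arginine-rich splicing factor, was at 79.5 FPKM in KO saline, 106 FPKM in KO Dox and 81.1 in WT Dox, against 254 FPKM in WT saline. Srsf2, of the same family, was at 66.0 FPKM in KO saline, 66.5 FPKM in KO Dox and 59.7 in WT Dox, against 150.3 FPKM in WT saline. The splicing-associated Pnisr fell too (-1.38). Hnrnph1 was the one of these 5 genes that was lower in both KO libraries than in both WT libraries. In the Dox pair the median of the list was 0.07. In the saline pair 16 of the 30 genes passed with a common sum.

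The same order of levels was found among the strongest protein-coding falls outside that list. E2f3, a transcription factor that drives entry into the cell cycle, was at 18.2 FPKM in KO saline, 11.4 FPKM in KO Dox and 9.56 in WT Dox, against 65.8 FPKM in WT saline. Ccnl2, a cyclin that takes part in splicing, was at 12.2 FPKM in KO saline, 13.5 FPKM in KO Dox and 13.8 in WT Dox, against 41.7 FPKM in WT saline. Chkb, an enzyme of phosphatidylcholine synthesis, was at 5.03 FPKM in KO saline, 5.42 FPKM in KO Dox and 6.43 in WT Dox, against 19.5 FPKM in WT saline. Ccnl2 and Chkb were level among all libraries but WT saline, and E2f3 was highest there by far. WT saline was also the highest library for Adamts10 (-1.77), a secreted protease of microfibrils, and for the zinc finger protein Zc3h7a (-1.66). Fam71a was at 5.03 FPKM in KO saline and 24.9 FPKM in WT saline (-2.20), and in the Dox pair its difference was -0.88.

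A minority of the genes of DNA replication and mitosis fell. Of 27 tested 6 fell and none rose, beside 3.03% that fell among all genes, and the median was -0.25. WT saline was the highest library for 14 of them, beside 32.7% of all genes. The proliferation marker Mki67 was at 0.640 FPKM in KO saline and 2.35 FPKM in WT saline (-1.32). Birc5, the survivin gene of dividing cells, was at 0.774 FPKM in KO saline and 2.62 FPKM in WT saline (-1.29), and the spindle factor Tpx2 at 0.412 and 1.72 FPKM (-1.28). Apart from E2f3 the fallen genes had under 5 FPKM in each of the saline libraries, where few fragments lie behind a value. At a pseudocount of 1 only 3 of the 27 passed. Mcm7, a subunit of the replicative helicase, was at 11.4 FPKM in KO saline and 8.02 FPKM in WT saline (0.48), and the sliding clamp Pcna was at 62.5 and 83.7 FPKM (-0.42), and neither passed.

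Of 33 immediate early genes, which rise within minutes of cell dissociation, 2 fell and none rose in KO saline, with a median of -0.30. Gadd45g, a stress-induced growth arrest gene, was at 31.7 FPKM in KO saline and 17.2 FPKM in KO Dox, against 124 FPKM in WT saline and 39.3 in WT Dox. Dusp6, a phosphatase of the kinase ERK, was at 29.1 FPKM in KO saline and 70.7 FPKM in WT saline (-1.27). Fos, a subunit of AP-1, was at 2039.8 FPKM in KO saline and 2822 FPKM in WT saline (-0.47). WT saline was the highest library for 21 of the 33 genes, beside 32.7% of all genes. Scaled to a common sum, 5 of them passed. Whether the response to dissociation has a part in the calls was not tested.

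Circadian clock genes included a pair of opposite moves that were present in both genotype pairs. Dbp, a transcription factor whose level follows the clock, was at 82.2 FPKM in KO saline and 127 FPKM in KO Dox, against 25.6 FPKM in WT saline and 40.8 in WT Dox. Arntl, which encodes the clock activator BMAL1, was at 1.02 FPKM in KO saline and 0.475 FPKM in KO Dox, against 2.53 FPKM in WT saline and 1.72 in WT Dox. The differences of Dbp, which overlaps Sphk2, were 1.66 and 1.62. Arntl just reached the threshold in the saline pair, where it no longer passed under median-ratio scaling (-0.99), and its difference in the Dox pair was -1.19. Ciart, a repressor within the clock, was at 8.08 FPKM in KO saline and 7.21 FPKM in KO Dox, against 3.68 FPKM in WT saline and 3.87 in WT Dox (1.04 and 0.82). Over the 19 clock genes 2 rose and 1 fell, with a median of -0.24. Per2 was at 11.4 FPKM in KO saline and 15.9 FPKM in WT saline (-0.47), and the repressor Nr1d1 was at 82.1 FPKM in KO saline and 92.8 FPKM in WT saline (-0.18), so most of the clock differed by less. The hour of collection is not stated, and its part was not tested.

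BMAL1 and its partner CLOCK bind the E-box CACGTG, which reads the same on both strands. The window of Ciart (chr3:95882229-95882478, minus strand, RefSeq, GRCm38.p6) holds it 3 times, and it is printed 5′ to 3′ with the E-boxes in capitals because Ciart is the clock gene described here in which the element was found. E-boxes were looked for after the values had been seen.
Ciart: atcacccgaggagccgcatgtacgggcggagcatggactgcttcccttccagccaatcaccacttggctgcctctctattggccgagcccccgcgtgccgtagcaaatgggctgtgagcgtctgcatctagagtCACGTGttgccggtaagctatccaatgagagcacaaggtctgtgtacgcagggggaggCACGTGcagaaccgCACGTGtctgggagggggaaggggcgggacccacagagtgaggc
Of all 32851 windows 6.02% hold CACGTG. Among the named genes it was found for 2 of 20 risen ones with a window, Ciart and Srd5a3, and for 2 of 30 fallen ones, E2f3 and Gadd45g. Within the Ciart window the element nearest the start shares 2 bases with the only CAGACA, which lies on the other strand.

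Mitochondrially encoded genes rose in KO saline, whereas in the Dox pair they were lower in KO. Of 13 protein genes of the mitochondrial genome 11 rose and none fell in KO saline, with a median of 1.27. With a common sum 4 passed and the median was 0.88, and none reached a difference of 2. In the Dox pair none rose and 6 fell, with a median of -0.99. The cytochrome oxidase subunit mt-Co3 was at 8403 FPKM in KO saline and 2979 FPKM in WT saline, and at 2356 FPKM in KO Dox and 6581 FPKM in WT Dox. The complex I subunit mt-Nd3 was at 4541 FPKM in KO saline and 1263 FPKM in WT saline (1.85), and at 2476 FPKM in KO Dox and 2729 FPKM in WT Dox (-0.14). KO saline was the highest of the 4 libraries for all 13 genes, and the difference between genotypes had opposite signs in the saline and the Dox pair. Of 49 nuclear genes of oxidative phosphorylation none passed in KO saline, 44 had a difference above 0, and the median was 0.29. Of 19 glycolysis genes none passed either, and their median was 0.42. Ldhb, a lactate dehydrogenase subunit, was at 39.7 FPKM in KO saline and 23.2 FPKM in WT saline (0.76).

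Some of the largest rises, those of Actb and Cacnb4, belonged to KO saline alone, and others were partly shared with KO Dox. Actb, the cytoplasmic β-actin, was at 13709 FPKM in KO saline and 3160 FPKM in WT saline (2.12), while KO Dox had 3257 FPKM and WT Dox 3468 FPKM. The companion cytoplasmic actin Actg1 was at 1205 FPKM in KO saline and 1049 FPKM in WT saline (0.20), and of 33 genes of the actin cytoskeleton only Actb and Capzb passed. Cacnb4, an auxiliary subunit of voltage-gated calcium channels, was at 24.4 FPKM in KO saline, 0.245 FPKM in KO Dox and 0.191 in WT Dox, against 0.352 FPKM in WT saline. It had the largest rise of the nuclear protein-coding genes whose mean reached 5 FPKM (4.87), and rests on the KO saline library. Immp2l, a peptidase of the inner mitochondrial membrane, was at 36.5 FPKM in KO saline and 12.2 FPKM in KO Dox, against 6.23 FPKM in WT saline and 21.5 in WT Dox. Srd5a3, a reductase needed for protein glycosylation, was at 35.0 FPKM in KO saline and 18.2 FPKM in KO Dox, against 9.13 FPKM in WT saline and 9.09 in WT Dox. Its difference in the Dox pair was 0.96, whereas that of Immp2l was -0.79. The ubiquitin ligase Rnf167 (1.74, and 0.69 in the Dox pair) and Pgap2 of lipid anchor remodelling (1.59, and 0.74 in the Dox pair) rose as well. The small mitochondrial protein Smim4 passed in both pairs (1.86 and 1.07). Cacnb4, Immp2l, Rnf167, Pgap2 and Smim4 overlap other annotated genes. Among 18 housekeeping genes Actb was the only one past the rule, and their median was 0.22.

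Most vessel identity and function lists held few or no calls, and at the share of all genes (4.72%) lists of this size would too. Of 9 venous endothelial markers 2 fell, the selectins Sele (-1.38) and Selp (-1.32), with a list median of -0.23. None of 12 capillary, 11 arterial, 9 endocardial and 10 lymphatic endothelial markers passed, with medians of 0.08, -0.13, -0.43 and -0.43. All 9 endocardial markers were lower in both KO libraries than in both WT libraries, as were 20.7% of all genes. Cytl1, which marks endocardium, was at 55.1 FPKM in KO saline and 35.9 FPKM in KO Dox, against 90.7 FPKM in WT saline and 59.3 in WT Dox. The capillary gene Gpihbp1, which holds lipoprotein lipase on the vessel wall, was at 1092 FPKM in KO saline and 895 FPKM in WT saline. The endothelial nitric oxide synthase Nos3 was at 109.7 FPKM in KO saline and 109 FPKM in WT saline. None of 30 vasoactive and clotting genes, 20 Notch genes, 27 genes of lipid uptake and 18 heat shock genes passed, and of 42 junction genes and endothelial transcription factors 1 fell, the claudin Cldn12 (-1.10). With a common sum 4 vasoactive and clotting, 3 Notch, 2 lipid and 1 heat shock genes passed, as did 1 capillary, 1 arterial, 2 endocardial and 2 lymphatic markers.

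Of 33 genes of angiogenesis 1 rose and none fell. Fgf1, a growth factor of endothelium, was at 10.6 FPKM in KO saline and 6.27 FPKM in KO Dox, against 4.54 FPKM in WT saline and 8.88 in WT Dox, so the Dox pair did not share the direction. Of 52 collagens, basement membrane and matrix genes 3 fell and none rose, with a median of -0.26. Plod2, an enzyme that hydroxylates lysines of collagen for cross-linking, was at 6.70 FPKM in KO saline and 5.04 FPKM in KO Dox, against 18.4 FPKM in WT saline and 10.7 in WT Dox. The protease Adamts9 was at 17.9 FPKM in KO saline, 21.6 FPKM in KO Dox and 20.3 in WT Dox, against 39.8 FPKM in WT saline. Mmp9 is the remaining one. Of 27 genes of p53, arrest and senescence 2 fell, Ptprv and Mdm2, the ligase that degrades p53, at 10.8 FPKM in KO saline and 23.1 FPKM in WT saline. Of 37 interferon response genes Mx2 fell (-1.24), and of 29 antioxidant and iron genes the metallothionein Mt2 fell (-1.07). Scaled to a common sum, 9 matrix, 4 p53, 5 interferon and 6 antioxidant and iron genes passed.

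Transcripts of other cell types differed between the saline libraries too, and in bulk RNA fewer cells of a type and less RNA per cell cannot be told apart. Of 23 markers of macrophages and monocytes, Lyz2 and the scavenger receptor Cd163 fell in KO saline and none rose, with a median of -0.43. Cd163 was at 9.16 FPKM in KO saline and 2.69 FPKM in KO Dox, against 19.5 FPKM in WT saline and 12.9 in WT Dox. Their summed level was 508 FPKM in KO saline and 337 FPKM in KO Dox, against 800.4 FPKM in WT saline and 821 in WT Dox. It was lower in both KO libraries, and more so in the Dox pair. In that pair the fallen chemokines Ccl8 and Ccl2 passed in the same direction, and Ccl12, Ccl3, Ccl4, Cxcl2 and Cxcl10 did not. The defining marker Csf1r was at 32.3 FPKM in KO saline and 37.3 FPKM in WT saline (-0.21) and Ptprc at 6.96 and 7.06 FPKM (-0.02). None of the 23 was at the floor, and 7 passed with a common sum. The part of macrophages in the chemokine values was not tested.

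Erythroid and cardiomyocyte transcripts were higher in KO saline. Of 7 erythroid markers 5 rose (2 with a common sum), with a median of 1.13, and their summed level was 10308.5 FPKM in KO saline and 28627 FPKM in KO Dox, against 4433 FPKM in WT saline and 4396 in WT Dox. Hba-a2, an α-globin whose copy Hba-a1 is nearly identical, was at 4362 FPKM in KO saline and 1665 FPKM in WT saline (1.39). Of 24 cardiomyocyte markers 1 rose, the heavy chain of cardiac myosin Myh6 at 153 FPKM in KO saline and 68.5 FPKM in WT saline (1.15), and 23 had a difference above 0, with a median of 0.64. Myh6 no longer passed with a common sum (0.77). The summed level of the 24 markers was 2664 FPKM in KO saline and 3418 FPKM in KO Dox, against 1787 FPKM in WT saline and 2186 in WT Dox. Between the Dox libraries 4 of them were higher and 1 was lower in KO by the same rule, with a median of 0.35. The mitochondrially encoded genes had a median of -0.99 in that pair. There the nuclear genes of oxidative phosphorylation had a median of 0.59 and the glycolysis genes 0.28. Cardiomyocytes are rich in mitochondria and in glycolytic and oxidative enzymes, and the part of these cells in the mitochondrial and metabolic values was not tested. Single low markers also passed, Cd79b of B cells (-1.01), Itga2b of platelets (-1.11) and Gfra3 of Schwann cells (1.11), while no marker of fibroblasts or pericytes did.

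The difference between genotypes also followed the length of the transcript. Protein-coding genes were put into 10 groups of equal size by the summed length of their exons. The median difference of KO saline and WT saline was 0.14 in the shortest group and -0.28 in the longest, and in the Dox pair it was 0.37 and -0.30. The shortest group held 34 risen and 43 fallen genes, and the longest held 2 risen and 43 fallen ones. With a running median over length taken off, 191 genes rose and 360 fell, and of the named genes past the rule 5 no longer passed, Adamts9, Arntl, Ciart, H2-T22 and Itgav. Both pairs share this trend, so the same-direction calls of short or long genes move with it, and 135 genes passed in the same direction in both pairs after its removal, beside 139 before.

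**Figure D5:**
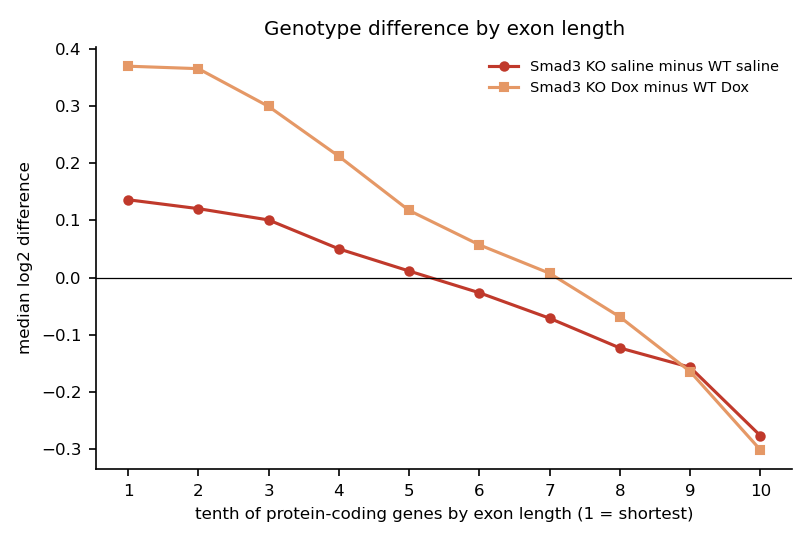
The median log2 difference KO saline minus WT saline (circles) and KO Dox minus WT Dox (squares) in each of 10 groups of protein-coding genes by exon length, from the shortest on the left to the longest on the right. Both lines fall from left to right, from 0.14 to -0.28 in the saline pair and from 0.37 to -0.30 in the Dox pair.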

How the data were processed

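RNA sequencing of CD31-selected heart cells gave 1 library for each of 4 groups. The table deposited by the authors holds FPKM per gene and library, with values below 0.05 set to that floor. CASAVA, STAR and GRCm38 p4 stand in the submitters' processing notes, whereas TopHat, Bowtie and Cufflinks, run on a human build, stand in the methods of the study, so the aligner behind these FPKM is uncertain. For annotation release and strand setting: not given in the sources used here. Read totals are unknown, and no counting interval could be given.

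Of 45952 lines, 121 held 51 repeated gene identifiers and were summed per identifier, leaving 45882 genes. Of these, 44952 matched GENCODE M21, which supplied positions and types of gene. Overlaps with other annotated genes are not stated for every named gene. Genes averaging 1 FPKM or more over the 4 libraries were kept, and differences were taken between log2(FPKM + 0.5) values, KO minus WT. A gene was called at a difference of 1 or more. With 1 library per group nothing was tested. Genes were named by fixed rules: Smad3 and its family; up to 4 called genes of each list with the largest differences; the 12 highest and 12 lowest nuclear protein-coding genes averaging 5 FPKM or more; and the 10 strongest in each direction that passed in both genotype pairs. Predicted genes, clone-named ones among them, segments of immune receptors and Y-linked genes are not named, nor are annotated pseudogenes from the last rule (H2-Q5 enters through its list), and other genes are named as values of their lists. The comparison, the members and the lists were chosen with earlier results of these data known. Promoter windows are RefSeq sequences of GRCm38.p6, matched by symbol. Alternatives were the pseudocount, the filter, scaling by median ratio, upper quartile or sum, the size rule, the grouping by tag, the removal of marker genes or of the trend with length, and, chosen after seeing the data, a sum without Actb and mitochondrial genes. The scripts were tested on simulated data and ran in Python 3.11.15 with numpy 2.4.6, pandas 2.3.3 and matplotlib 3.10.9.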

Additional observations from a re-analysis of the deposited data

Results flagged for a closer look

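The mitochondrially encoded protein genes had opposite differences between genotypes in the saline and the Dox pair. The median over 13 genes was 1.27 for KO saline against WT saline and -0.99 for KO Dox against WT Dox. For mt-Atp8 the differences were 1.47 and -1.57, and for mt-Co3 they were 1.496 and -1.48. With 1 library per group the difference between the pairs was not tested.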

How the results depend on the processing

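Beside the 582 genes past the rule, 209 of them higher in KO saline and 373 lower (35.9% higher), other settings gave the following numbers. Without a filter on low values 992 passed, 401 higher and 591 lower. At a mean of 5 FPKM 252 passed, 105 higher and 147 lower, with 68 in the same direction in the Dox pair and 154 with both KO libraries on one side of both WT libraries. With libraries scaled to a common sum, which moved the median of all genes to -0.38, 1406 passed, 130 higher and 1276 lower (9.25% higher), 228 in the same direction in the Dox pair and 862 on one side. With that sum taken without Actb and mitochondrial genes, a setting chosen after seeing the data, the median was -0.20 and 956 passed, 173 higher and 783 lower (18.1% higher), 586 on one side. At a size rule of 2, 109 passed, 59 higher and 50 lower (54.1% higher), 23 in the same direction in the Dox pair and 40 on one side. With the lowest values replaced by 0.5 FPKM, 568 were lower and 227 had the same direction in the Dox pair. Among nuclear protein-coding genes 352 passed, 94 higher, and 83 had the same direction in the Dox pair.

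Smad3 differed by -0.97 with a pseudocount of 1, short of the rule, and by -1.19 under a size rule of 2, which it did not reach. Grouped by the genotype tag, which sets the Dox libraries against the saline ones, it differed by -0.29. None of the named genes past the rule changed direction under the other settings, and the grouping by tag was computed for Smad3 alone. Genes near 0, such as Smad4 (0.06), can change sign with a common sum, which moved the median to -0.38. With a common sum the number of genes past the rule moved by over 1.5 times in 29 of 44 lists, and without Actb and mitochondrial genes in that sum in 15. Leaving out a replicate was not possible with 1 library per group. No paired analysis was possible because the titles carry no replicate numbers. The depth of the libraries is unknown, so the counting error of low genes cannot be given, and the difference between genotypes cannot be told apart from a difference between single libraries.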

Other observations

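Cyp26b1, an enzyme that breaks down retinoic acid, was chosen after its values were seen. It was at 8.04 FPKM in KO saline and 2.97 FPKM in WT saline (1.301), and at 2.96 FPKM in KO Dox and 10.3 FPKM in WT Dox (-1.64). It was higher in KO in the saline pair and lower in KO in the Dox pair.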
